A study of Mus musculus with 8 samples.

Results

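The syndecans and glypicans are the principal membrane-bound heparan sulfate proteoglycans, here the 10 genes Sdc1 to Sdc4 and Gpc1 to Gpc6, measured among 22180 genes in EMS404 cells. The members were chosen by symbol, as all 4 syndecans and 6 glypicans, and each gene is represented by the probe sets that carry its symbol alone, averaged where there was more than 1. EMS404 is an established line of mouse hepatic stellate cells, taken by the study to stand for stellate cells in their myofibroblast state. Both groups were lipofected with 20 nM of a small interfering RNA and collected 48 h later: 4 siCTRL samples received a non-targeting control and 4 siBNC2 samples received 1 siRNA against Bnc2, the gene of the zinc finger transcription factor Basonuclin 2. Each sample had its own 1-colour Affymetrix mouse gene array, and values are log2 expression values. As a model this is 1 cell line and 1 siRNA per target. The labels name no separate cultures, while the study describes its cell line arrays as independent replicates, and p-values measure the spread between these samples.

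Heparan sulfate proteoglycans are core proteins that carry long, sulfated sugar chains. Through these chains they bind growth factors, morphogens, chemokines and matrix proteins and present them to signalling receptors. Syndecans cross the membrane and have a short cytoplasmic tail that binds scaffold proteins and kinases, whereas glypicans are tied to the outer leaflet of the membrane by a lipid anchor. In the fibrotic liver, stellate cells are surrounded by a matrix that such molecules help to sense and to organise.

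The arrays and labels were checked first. Bnc2 read 8.26, 8.41, 8.37 and 9.03 in siCTRL 1 to 4 and 7.07, 6.78, 6.72 and 8.18 in siBNC2 1 to 4, with no overlap between the groups, a difference of −1.33 ± 0.31 (SE of limma) and an exact two-sided permutation p of 0.0286, the lowest value that 70 splits of the arrays can give. Array medians lay between 6.45 and 6.502. The 2 arrays numbered 4 stood apart: across genes they correlated with each other at r = 0.995 but with the other 6 arrays at 0.983 to 0.990, while those 6 correlated among themselves at 0.990 to 0.996. Results are therefore given with and without the arrays numbered 4. Of 15 markers of stellate cells and myofibroblasts 13 stood above the dim line, defined here as the 40th percentile of gene means (5.66), and the mean of that list lay between 11.97 and 12.18 on the siCTRL arrays and between 11.98 and 12.08 on the siBNC2 arrays. Lrat and Reln, which mark quiescent stellate cells, were the 2 dim genes of the list. The stellate cell markers Cygb and Hand2 of the same list stood above the dim line. Markers of hepatocytes were dim for 6 of 9 genes, Alb and Ttr included, and those of endothelial cells for 6 of 9. The highest genes of these lists had means of 6.91 and 6.16, respectively. Macrophage and leukocyte markers were dim for 7 of 10 genes, among them the pan-leukocyte gene Ptprc. The highest gene of that list had a mean of 9.72, well above the dim line. The lists of these other cell types had means between 4.98 and 5.99 on every array, apart from cholangiocyte markers, which reached 6.03, with 4 of 7 dim.

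For all 10 genes, the arrays of at least 1 group spanned more than the difference between the group means. The same held for Bnc2, whose siBNC2 arrays ran from 6.72 to 8.18, so this span does not set the members apart. Across all genes, Bnc2 included, limma called 0 at an adjusted p of 0.05, or 0% of those tested, and 0 of the 10 members. At an unadjusted p under 0.05 it called 1 member, Gpc4, against 708 genes or 3.19% of all genes tested in either direction and 1.33% in the lower direction. The 2 groups overlapped for all 10 members on the 8 arrays, while 2.16% of all genes tested did not overlap. Of the members 4 had a lower mean in siBNC2 and 6 a higher one, with 48.1% of all genes tested lower. The median difference was 0.08 for the syndecans, −0.07 for the glypicans and 0.01 for all genes. In RNA from a whole culture, fewer cells that express a gene and less RNA per cell cannot be told apart.

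**Figure D1:**
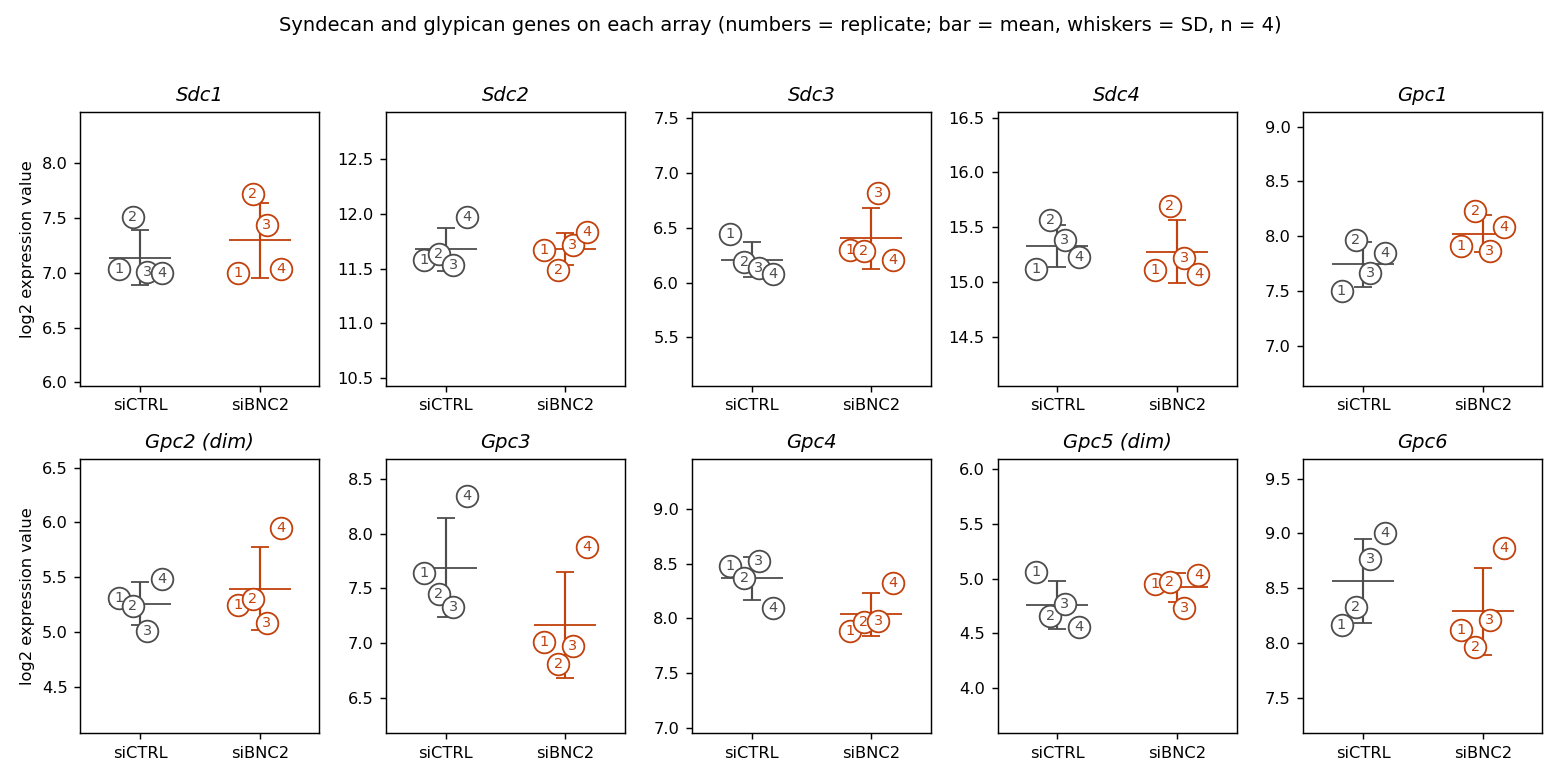
Log2 expression value (vertical axis, the same span of 2.5 units in each panel) of each syndecan and glypican gene on each array of siCTRL and siBNC2, with the replicate number in the point, the group mean as a bar and the SD as whiskers (n = 4). Gpc3 and Gpc4 show siBNC2 arrays 1 to 3 below the siCTRL arrays 1 to 3, and Sdc2 and Sdc4 show groups that lie over each other.

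Gpc3 and Gpc4 are next to each other on the X chromosome, with 0 genes annotated between them in RefSeq's GRCm38.p6, and they were the members with the most negative differences. The proximal promoters of both are shown for these negative differences, although neither gene passed an adjusted p of 0.05 in limma. That of Sdc4, whose groups lay over each other, is set beside them. RefSeq's table gave such a window of 300 bases, 250 before and 50 after the start of the gene, for 7 of the 10 members. The sequences are those of GRCm38.p6 at chrX:52613925-52614224 for Gpc3, chrX:52164874-52165173 for Gpc4 and chr2:164443139-164443438 for Sdc4, all on the minus strand and written 5′ to 3′ in the sense of the gene. Capitals mark matches on either strand to the GC box GGGCGG, the TEAD motif GGAATG, the AP-1 motif TGANTCA and the TATA box TATAAA. TEAD proteins are DNA-binding partners of the co-activator YAP, and AP-1 is the dimer of Fos and Jun proteins. The matches do not overlap one another in these windows.
Gpc3: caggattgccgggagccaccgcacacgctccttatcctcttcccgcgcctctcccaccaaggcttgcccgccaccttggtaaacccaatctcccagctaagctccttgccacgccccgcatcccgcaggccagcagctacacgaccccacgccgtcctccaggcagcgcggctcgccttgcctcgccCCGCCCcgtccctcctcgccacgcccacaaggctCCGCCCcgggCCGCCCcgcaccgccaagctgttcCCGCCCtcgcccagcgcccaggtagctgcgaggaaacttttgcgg
Gpc4: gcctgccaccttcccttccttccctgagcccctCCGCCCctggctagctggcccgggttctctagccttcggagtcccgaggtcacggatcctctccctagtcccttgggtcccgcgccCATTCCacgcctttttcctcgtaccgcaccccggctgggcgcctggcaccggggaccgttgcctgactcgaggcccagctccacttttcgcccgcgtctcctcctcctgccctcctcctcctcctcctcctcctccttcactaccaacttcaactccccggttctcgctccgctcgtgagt
Sdc4: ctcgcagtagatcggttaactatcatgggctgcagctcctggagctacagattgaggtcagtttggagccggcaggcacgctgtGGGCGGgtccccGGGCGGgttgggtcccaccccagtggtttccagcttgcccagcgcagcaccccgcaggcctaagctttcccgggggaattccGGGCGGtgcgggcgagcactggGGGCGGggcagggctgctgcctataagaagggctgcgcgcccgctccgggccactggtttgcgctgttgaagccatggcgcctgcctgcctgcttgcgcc
All matches in Gpc3 and Sdc4 were GC boxes, 4 in each. Gpc4 had 1 GC box and 1 TEAD match, read on the opposite strand as CATTCC, and was the only one of the 7 windows with a TEAD match. Among 32851 promoter windows of the same length, 35.7% held a GC box, 14.7% the TEAD letters, 7.81% the AP-1 letters and 13.6% the TATA letters. All 7 member windows held a GC box, 0 held the AP-1 letters and 1, that of Gpc5, held the TATA letters. G and C made up 54.7% to 77.7% of the bases in the 7 windows, against a median of 52.7% over all windows. These are letter matches in a short window and not measured binding sites.

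Among the glypicans, Gpc3 had the largest difference. Its protein restrains Hedgehog signalling and growth, is lost in a human overgrowth syndrome and is made again in human liver cancer. Gpc3 read 7.64, 7.45, 7.32 and 8.35 in siCTRL 1 to 4 and 7.01, 6.81, 6.97 and 7.88 in siBNC2 1 to 4. In both groups the array numbered 4 was the highest, and the siBNC2 array 4 lay above 3 of the 4 siCTRL arrays. The siCTRL mean was 7.69 ± 0.46 and the siBNC2 mean 7.17 ± 0.48 (SD, n = 4), a difference of −0.52 ± 0.28 (SE, 95% interval −1.14 to 0.10), or 1.44-fold lower. It did not pass, with a limma adjusted p of 1.00 and an exact two-sided permutation p of 0.171. Without both arrays numbered 4 the difference was −0.54 ± 0.15 (95% interval −0.88 to −0.20), and all 3 siBNC2 arrays read below all 3 siCTRL arrays, where the exact permutation test cannot go below p = 0.1 and limma's adjusted p was 0.999. Without siCTRL replicate 4 alone it was −0.30, and without siBNC2 replicate 4 alone −0.76. Arrays of the same number differed by −0.63, −0.64, −0.35 and −0.47, each in the lower direction. A fit that pairs same-numbered arrays gave −0.52 ± 0.12 (SE, limma unadjusted p = 0.00216, adjusted p = 0.668). It applies only if the numbers name rounds, and Gpc1, Gpc4 and Gpc6 are treated likewise with the alternatives below.

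Gpc4, a glypican found on many mesenchymal and neural cells, was the member at an unadjusted p under 0.05. Its values were 8.48, 8.37, 8.53 and 8.09 in siCTRL and 7.88, 7.97, 7.98 and 8.33 in siBNC2. On the arrays numbered 1 to 3 the siBNC2 values lay below the siCTRL values, and on the arrays numbered 4 the order was the opposite. The means were 8.37 ± 0.20 (SD, n = 4) and 8.04 ± 0.20, a difference of −0.33 ± 0.14 (SE, 95% interval −0.65 to −0.0036), or 1.25-fold lower, with limma p = 0.0480, an adjusted p of 1.00 and an exact permutation p of 0.0571. Without the arrays numbered 4 the difference was −0.52 ± 0.13 (95% interval −0.82 to −0.21), or 1.43-fold lower, with an adjusted p of 0.999. Thus 2 of the 10 members, Gpc3 and Gpc4, had groups that did not overlap on those 6 arrays, both in the lower direction, where 8.72% of all genes tested did not overlap and 3.76% did so in the lower direction. Both arrays numbered 4 were left out with their standing apart already known.

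Gpc6, a glypican whose loss impairs limb growth in humans, also had a lower mean. It read 8.16, 8.33, 8.77 and 9.003 in siCTRL and 8.12, 7.96, 8.21 and 8.87 in siBNC2. The groups overlapped widely, and in both the array numbered 4 was the highest. The difference of −0.28 ± 0.24 (SE, 95% interval −0.81 to 0.25, limma adjusted p = 1.00) was −0.13 without siCTRL replicate 4 and −0.47 without siBNC2 replicate 4. Gpc5 and Gpc6 neighbour each other on chromosome 14, with 3 genes annotated between them and 0 of these protein-coding.

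Gpc1, which presents FGF2 and other growth factors on many cell types, had the highest positive difference of the 10. It read 7.498, 7.96, 7.67 and 7.85 in siCTRL and 7.91, 8.23, 7.86 and 8.08 in siBNC2. Only siCTRL 2 reached into the range of siBNC2. The means were 7.74 ± 0.20 (SD, n = 4) and 8.02 ± 0.17, a difference of 0.28 ± 0.14 (SE, 95% interval −0.04 to 0.59), or 1.21-fold higher, with an adjusted p of 1.00 and an exact permutation p of 0.114. Without the arrays numbered 4 it was 0.29 ± 0.18. Gpc1 has 2 probe sets and they differed in size: the one numbered 17215820, with means of 8.71 ± 0.44 and 9.16 ± 0.34, gave 0.45 ± 0.25, and 17548970, with means of 6.77 ± 0.11 and 6.88 ± 0.06, gave 0.11 ± 0.11. The positive mean of the gene was thus carried mainly by the first.

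The remaining glypicans were dim. Gpc2, a glypican of developing neurons, lay between 5.01 and 5.48 in siCTRL and between 5.08 and 5.95 in siBNC2, and Gpc5 between 4.55 and 5.06 and between 4.73 and 5.03. Differences of dim genes can be made small by background signal. Gpc2 differed by 0.13 ± 0.19, or −0.05 without siBNC2 replicate 4, and Gpc5 by 0.16 ± 0.14, or 0.05 without the arrays numbered 4 (adjusted p = 1.00 for both with limma). A further probe set that carries both Gpc2 and Gal3st4 was not used.

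Among the syndecans, Sdc4 is the one that joins integrins at focal adhesions, where it binds fibronectin and activates protein kinase C alpha. It read 15.12, 15.57, 15.39 and 15.23 in siCTRL and 15.11, 15.69, 15.22 and 15.07 in siBNC2. The groups lay over each other, with the array numbered 2 the highest in both. The difference was −0.05 ± 0.17 (SE), and its 95% interval of −0.42 to 0.32 spans 0.746-fold to 1.25-fold. Sdc2, the syndecan typical of fibroblasts, read 11.58, 11.63, 11.53 and 11.97 in siCTRL and 11.67, 11.49, 11.72 and 11.84 in siBNC2. Its means were 11.68 ± 0.20 (SD, n = 4) and 11.68 ± 0.15, and the interval of the difference, −0.30 to 0.31, spans 0.811-fold to 1.24-fold. For both genes the sign of the difference depended on which array was left out, from −0.19 to 0.03 for Sdc4 and from −0.05 to 0.10 for Sdc2.

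Sdc1, the syndecan of epithelia and plasma cells, read 7.03, 7.51, 7.01 and 6.997 in siCTRL and 7.004, 7.72, 7.43 and 7.04 in siBNC2. Only siCTRL 2 stood above the other controls, and siBNC2 2 was likewise the highest of its group. The difference of 0.16 ± 0.19 (SE, adjusted p = 1.00 with limma) was 0.02 without siBNC2 replicate 2 and 0.29 without siCTRL replicate 2. The 2 probe sets of Sdc1 gave 0.06 ± 0.18 and 0.26 ± 0.24. In the cholangiocyte list, Krt7, Krt19 and Cdh1 were dim, while Sox9, Epcam and Muc1 stood above the dim line. Of the 7 measured genes of that list 4 had a lower mean in siBNC2 and 3 a higher one, with a median of −0.07, from Muc1 at −0.09 ± 0.24 (SE) to Sox9 at 0.53 ± 0.23 (limma adjusted p = 1.00 for both). Without the arrays numbered 4 the list median was 0.08, with 3 of the 7 genes lower. On all 8 arrays 1 gene of the list was higher at an unadjusted limma p under 0.05, against 412 of all 22180 genes. The hepatocyte list also had 1 such higher gene, and the list of stellate cell and myofibroblast markers had 1 lower gene. The part of these genes in the values of Sdc1 was not tested. Sdc3, the syndecan of neural tissue, lay between 6.08 and 6.45 in siCTRL and between 6.204 and 6.82 in siBNC2. Its difference of 0.19 ± 0.16 was 0.05 without siBNC2 replicate 3, the array that read 6.82.

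**Figure D2:**
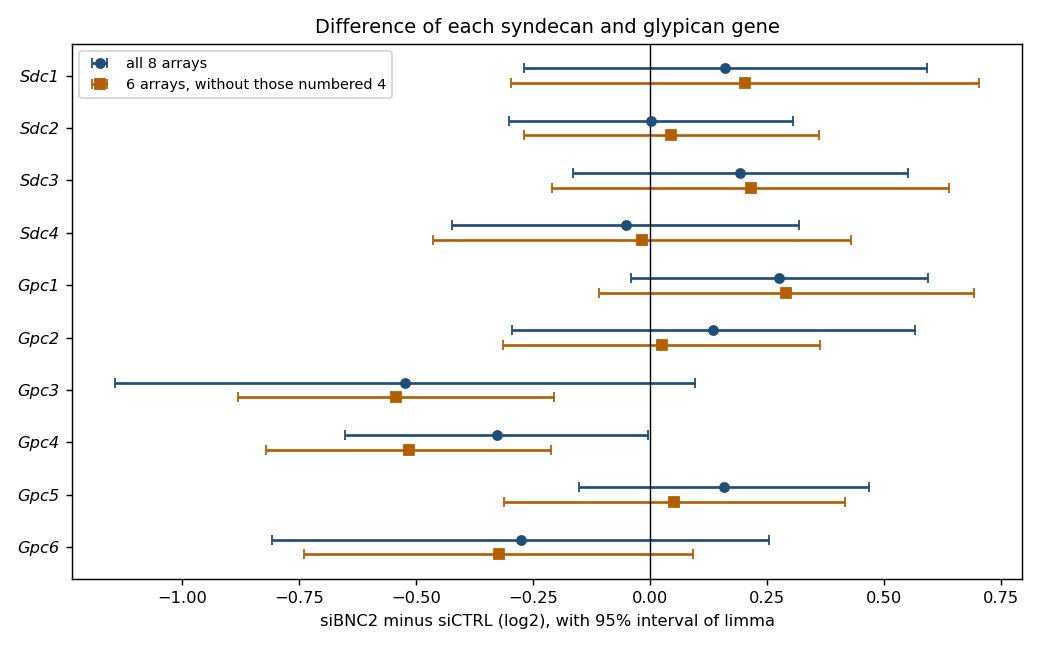
Difference of the group means, siBNC2 minus siCTRL on the log2 scale (horizontal axis), with the 95% interval of limma for each gene, on all 8 arrays (circles) and on the 6 arrays left without those numbered 4 (squares). The intervals of Gpc3 and Gpc4 exclude 0 on the 6 arrays, that of Gpc4 also on the 8, before adjustment over all genes, and those of the 4 syndecans include 0 in both fits.

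The order of the arrays within a group recurred between the groups for many members. Sdc2, Gpc2, Gpc3 and Gpc6, 4 of the 10, were highest on the array numbered 4 in both siCTRL and siBNC2, against 13.4% of all genes tested. Gpc3 stood 0.66 above its group mean on siCTRL 4 and 0.71 above it on siBNC2 4, and Gpc6 stood 0.44 and 0.58 above. For both genes these deviations exceed the size of the difference between the groups. Sdc1, Sdc4 and Gpc1, 3 of the 10, were highest on the array numbered 2 in both groups, against 7.65% of all genes tested. Sdc1 stood 0.38 and 0.42 above its group means there, and Sdc4 0.24 and 0.42, again more than the difference between the groups. Gpc4 and the dim gene Gpc5 had no such order, each being lowest of its group on siCTRL 4 and highest on siBNC2 4. The study states that the groups of a cell experiment were handled together in every round of replicates, but neither it nor the labels say that a number names a round.

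**Figure D3:**
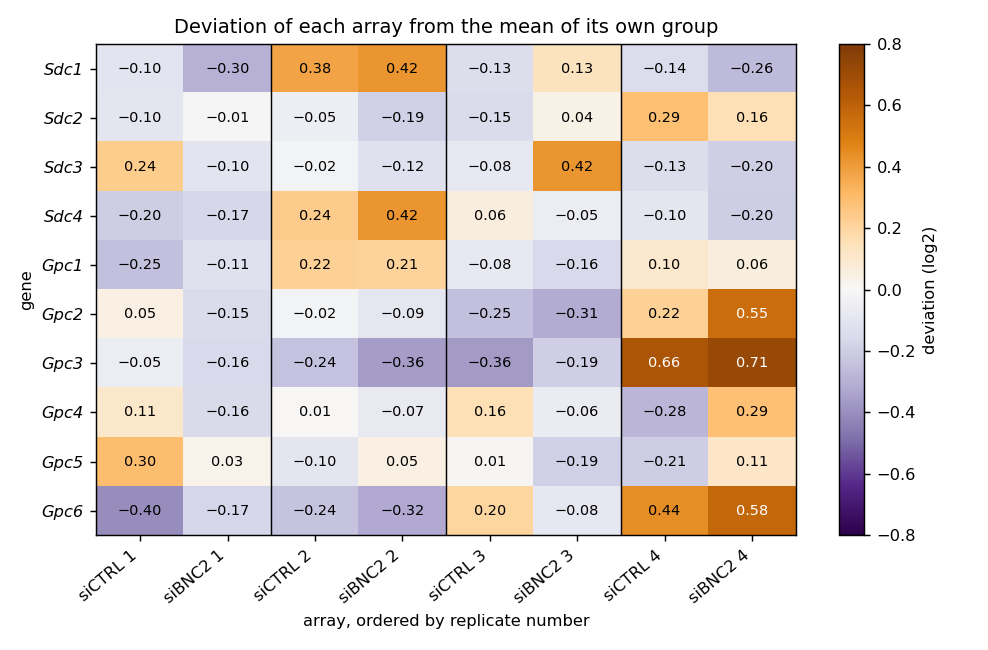
Deviation of each array from the mean of its own group on the log2 scale (colour and printed value) for the 10 genes (rows), with arrays ordered by replicate number (columns). Gpc3 and Gpc6 are high on both arrays numbered 4, and Sdc1, Sdc4 and Gpc1 are high on both arrays numbered 2.

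For the 3 members that varied most over the 8 arrays among those above the dim line, the genes with the most similar pattern were looked up among 13300 others above that line, as a description. Gpc3 (SD 0.52 over 8 arrays) was most like Tmem38a, a potassium channel of the endoplasmic reticulum, with Pearson r = 0.99 and Spearman rho = 1.00, and Gas6, a ligand of TAM receptor kinases, with r = 0.97 and rho = 0.98. Gpc6 (SD 0.39) was most like the choline transporter gene Slc44a1 (r = 0.99, rho = 0.90) and the adenylate kinase gene Ak5 (r = 0.98, rho = 0.98). Both pairs were highest on the arrays numbered 4 in each group, as Gpc3 and Gpc6 were. With the 2 arrays farthest from the median of the companion gene left out, r over the remaining 6 lay between 0.951 and 0.967 for these 4 genes. For Tmem38a and Gas6 the arrays left out were siCTRL 4 and siBNC2 2, so siBNC2 4 remained in. Sdc1 (SD 0.29) was most like Memo1 (r = 0.97, rho = 0.81) and Naa50 (r = 0.95, rho = 0.64), with r of 0.904 and 0.816 over 6 arrays. The arrays share 2 groups and the replicate structure described above, so these values carry no p.

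The genes that build, cut and use heparan sulfate were described next, from 7 lists written with earlier results of these data known. Of their 132 genes 126 were measured, and with limma 0 passed an adjusted p of 0.05 in either direction, while at an unadjusted p under 0.05 there was 1, Mmp14, against 3.19% of all genes tested. Of the 126 genes 88 had a lower mean in siBNC2, 69.8% against 48.1% of all genes, with a median of −0.09 against 0.01. Above the dim line 76 of 102 were lower, 74.5% against 52.3% of all such genes, with a median of −0.13 against −0.0086. Leaving out 1 array at a time gave 78 to 91 lower genes and a median between −0.12 and −0.05. The lists hold brighter genes than the array as a whole, with 19.0% dim against 40%. For the 3 genes named from each list by their p, leaving out 1 array moved 13 of 21 differences by over 1.5 times, and 21 kept their sign. These genes were picked by p on the same arrays, a choice that favours a kept sign.

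Enzymes that start and lengthen the chain had 9 of 14 genes lower, with a median of −0.03 (−0.09 to −0.02 without 1 array). Ext1, which with Ext2 polymerises heparan sulfate, read 13.89, 14.24, 14.22 and 14.15 in siCTRL and 13.75, 14.13, 13.69 and 13.78 in siBNC2. The siBNC2 arrays 1, 3 and 4 lay below every siCTRL array, with a difference of −0.29 ± 0.14 (SE, n = 4 per group). Extl2 differed by −0.25 ± 0.16 (−0.14 without the arrays numbered 4) and the xylosyltransferase gene Xylt2, which attaches the first sugar, by −0.16 ± 0.12.

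Sulfation and editing enzymes had 16 of 23 genes lower, with a median of −0.12 (−0.14 to −0.03 without 1 array). The 2-O-sulfotransferase gene Hs2st1 differed by −0.31 ± 0.15 (SE), from 9.53 ± 0.12 to 9.22 ± 0.26 (SD, n = 4). Hpse, which encodes the heparanase that cuts the chains, differed in the other direction by 0.33 ± 0.17, from 7.08 ± 0.26 to 7.41 ± 0.27, and the groups overlapped through siCTRL 1. Its 2 probe sets differed: 17450142 gave 0.63 ± 0.27 and 17548411, under the dim line at means of 5.24 and 5.27, gave 0.03 ± 0.20 (adjusted p = 1.00 for both). The 3-O-sulfotransferase gene Hs3st2, at −0.21 ± 0.12, was dim.

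Proteases and lipases that shed or release syndecans and glypicans had 11 of 14 genes lower, with a median of −0.07 (−0.12 to −0.03 without 1 array). Mmp14, a membrane metalloprotease that cleaves syndecans, read 15.22, 15.03, 15.13 and 15.26 in siCTRL and 15.06, 14.55, 14.39 and 14.72 in siBNC2. Only siBNC2 1 reached the range of the controls, and the difference was −0.48 ± 0.15 (SE), with an adjusted p of 1.00 in limma and an exact permutation p of 0.0571. Adamts1 differed by −0.41 ± 0.19 (SE, n = 4 per group), or −0.25 without siCTRL replicate 3, and the sheddase gene Adam17 by −0.29 ± 0.15, or −0.18 without that array.

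Partners of the syndecan tail had 8 of 13 genes lower, with a median of −0.04 that was 0.0026 without the arrays numbered 4. Sdcbp, the gene of syntenin, which binds the end of the tail, differed by −0.19 ± 0.12 (SE) and the scaffold gene Cask by −0.17 ± 0.14. The kinase gene Src differed by 0.27 ± 0.14. Other carriers of heparan sulfate and related co-receptors had 5 of 9 genes lower, with a median of −0.07 (−0.15 to 0.02 without 1 array). Nrp2, a co-receptor for semaphorins and VEGF, differed by −0.34 ± 0.15, the TGF-β co-receptor betaglycan (Tgfbr3) by −0.26 ± 0.16, and Col18a1 by −0.13 ± 0.14, or −0.02 without siBNC2 replicate 3.

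Ligands that bind heparan sulfate had 17 of 26 genes lower, with a median of −0.09 that was 0.0038 without siCTRL replicate 4 and 0.0071 without siBNC2 replicate 2. Wnt5a differed by −0.26 ± 0.14 (SE), the epithelial growth factor gene Fgf7 by 0.25 ± 0.13 and Vtn, a dim gene here, by 0.20 ± 0.11. Ptn, the gene of the heparin-binding factor pleiotrophin, had the most negative difference of all 126 genes, −0.85 ± 0.70, and is named after its values were seen. Its value was −1.46 without siBNC2 replicate 4 and −0.33 without siBNC2 replicate 2. Receptors that such co-receptors serve had 22 of 27 genes lower and the lowest median, −0.16, which was −0.07 without siBNC2 replicate 1 and −0.28 without siBNC2 replicate 4. The integrin genes Itgb5, Itga5 and Itgav differed by −0.27 ± 0.16, −0.25 ± 0.15 and −0.22 ± 0.16. Integrins of these chains bind vitronectin or fibronectin and act with Sdc4 at adhesions.

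**Figure D4:**
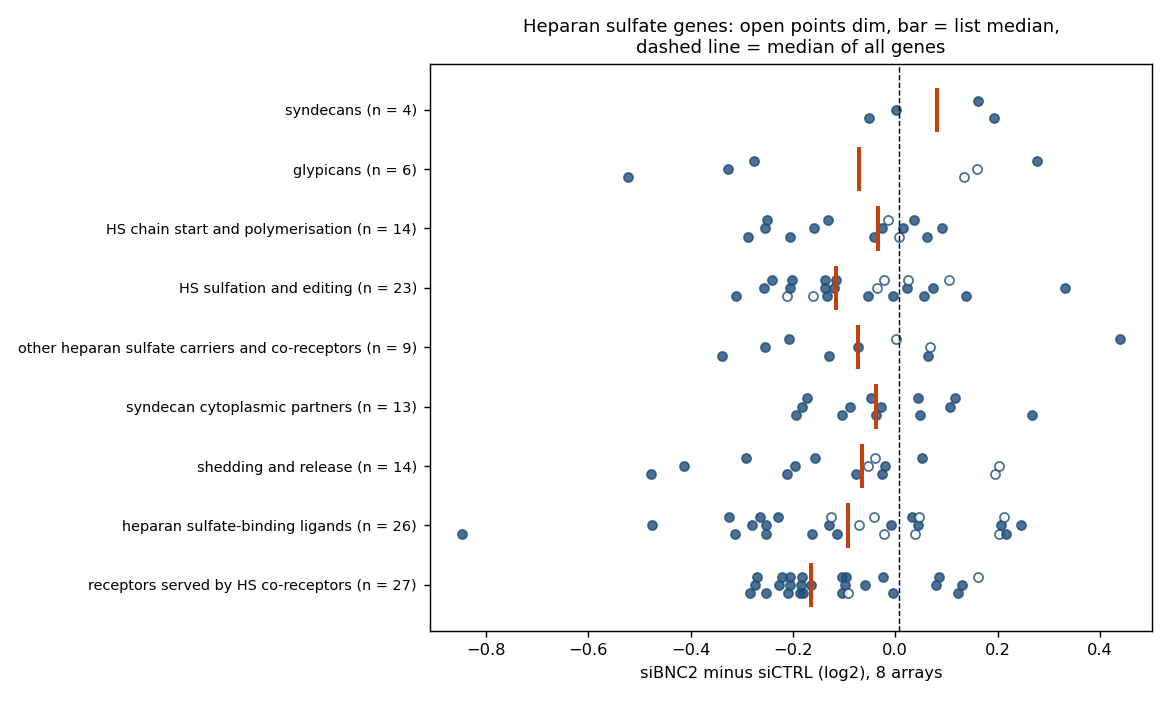
Difference siBNC2 minus siCTRL on the log2 scale (horizontal axis) of every measured gene of the syndecans, the glypicans and 7 lists of heparan sulfate (HS) genes, with dim genes as open points, the list median as a bar and the median of all genes, 0.01, as a dashed line. The receptors have the lowest list median, −0.16, and the glypicans are split between lower genes (Gpc3, Gpc4, Gpc6) and higher ones (Gpc1, Gpc2, Gpc5).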

How the data were processed

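RNA of 8 samples was hybridised to mouse gene arrays (MoGene 2.0). From the scans the authors ran Affymetrix Power Tools (version not given in the sources used here), correcting for GC content, scaling intensities and summarising core genes by RMA, and the deposited values are log2 values per probe set, quantile-normalized between arrays. The log base is not written with the values and is that of RMA. Quantile normalization removes a shift shared by most genes. Probe sets have unlike affinities, so levels of different genes were not ranked.

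The 23521 probe sets with 1 symbol, out of 41345, gave 22180 genes by averaging. All 10 members matched RefSeq by Entrez identifier. Differences between groups came from limma (version 3.58.1, R 4.3.3), where lmFit held only the group and eBayes moderated the variance. Its two-sided p-values were adjusted by Benjamini and Hochberg's method across the whole set of genes, at a threshold of 0.05, and single members were also compared by exact permutation over 8 arrays. The number of arrays limits the precision. The scripts were tested on simulated data. Members and lists were chosen with earlier results of these data known. Besides the members and Bnc2, the text names for each list the 3 genes with the smallest p, and, chosen after their values were seen, Ptn and some marker genes. Of the listed genes, 6 (Ndst1, Hs3st3a1, Nudt16l1, Arhgdia, Mmp15 and Areg) had no probe set of their own symbol. Unused columns numbered 0. Alternatives were another quantile normalization, median centring, a filter on dim genes, the brightest probe set, a replicate block, a trended robust prior, array weights, and leaving out single arrays or both numbered 4. The same-number check of the arrays is described with the alternatives.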

Additional observations from a re-analysis of the deposited data

Results flagged for a closer look

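In 4 of 64 groups of 4 arrays, over 32 genes named in the text, 1 array stood far from the other 3 (its gap to the nearest, as a share of the group's range, was above Dixon's 95% critical value), which chance gives in about 1 in 20 groups. Sdc1 in siCTRL read 7.51 on array 2, with the next array at 7.03. Sdc3 in siBNC2 read 6.82 on array 3, with the next at 6.30. Adam17 in siCTRL read 11.44 on array 3, with the next at 11.02. Wnt5a in siBNC2 read 6.64 on array 2, with the next at 7.03.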

How the results depend on the processing

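With limma 0 genes, 0 members and 0 genes of the 7 lists passed an adjusted p of 0.05 under all 16 alternatives. At an unadjusted p under 0.05 the counts moved. For all genes (708 as reported) there were 312 with the filter on dim genes, which tests fewer genes, 1207 with the replicate block and 589 to 1099 when 1 array was left out. For the members (1) there were 0 with quantile normalization again, the filter on dim genes or the trended, robust prior, 2 with array weights, the replicate block or without both arrays numbered 4, and 0 to 3 with 1 array left out, the 3 being without siBNC2 replicate 4. For the lists (1) there were 2 with median centring or the brightest probe set, 3 with quantile normalization again, 4 with array weights, 7 with the replicate block or without both arrays numbered 4, and 1 to 8 with 1 array left out.

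With the brightest probe set Hpse differed by 0.63, against 0.33 as reported. Of 508 differences recomputed for 32 genes, 11 turned sign, all of Sdc2, Sdc4 and Gpc2, whose differences as reported were smaller than their SE. Apart from Bnc2, the genes outside the members were picked by their p on these arrays. That choice makes a turned sign less likely, so the counts of members and other genes are not compared. Sdc2, at 0.0019 as reported, was −0.010 with median centring, −0.018 with array weights and −0.051 to 0.098 with 1 array left out. Sdc4 ranged from −0.19 to 0.028 and Gpc2 from −0.049 to 0.24 when 1 array was left out. What moved these differences between settings was not tested.

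Whether replicate numbers pair the arrays was checked on deviations from the group means across genes. Same-numbered arrays correlated at 0.39, 0.42, −0.0010 and 0.67 for numbers 1 to 4, and not every array was closest to the one with its own number. Numbers 1, 2 and 4 correlated positively and number 3 did not, which does not decide whether the numbers name rounds. With no source that ties a number to a round, the comparison without the block is the one reported. If the numbers do name rounds, the values to read are these. Same-numbered arrays differed by −0.63, −0.64, −0.35 and −0.47 in Gpc3, by 0.41, 0.27, 0.20 and 0.23 in Gpc1, by −0.05, −0.36, −0.56 and −0.14 in Gpc6 and by −0.59, −0.40, −0.55 and 0.24 in Gpc4. Thus 3 of 10 members, Gpc1, Gpc3 and Gpc6, differed in 1 direction in all 4 pairs, against 13.8% of all genes. In the paired fit with the replicate block Gpc3 differed by −0.52 ± 0.12 (SE, unadjusted p = 0.00216, adjusted p = 0.668) and Gpc1 by 0.28 ± 0.11 (unadjusted p = 0.0403, adjusted p = 0.892), both named here for their values, while Gpc4 (−0.33 ± 0.16) and Gpc6 (−0.28 ± 0.13) had unadjusted p of 0.0763 and 0.0666. Gpc2 and Gpc5, under the dim line, are also limited by signal.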
